A study of Macaca fascicularis with 11 samples.

Results

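SNAI2, VIM and OVOL2 are 3 genes of the epithelial to mesenchymal transition (EMT), and their transcripts were followed through all 11 libraries of a single-cell RNA-sequencing series of cynomolgus macaque embryos cultured in vitro. The 3 genes were chosen by symbol and matched to their Ensembl identifiers through the supplementary tables of the study (SNAI2 to ENSMFAG00000046061, VIM to ENSMFAG00000003332 and OVOL2 to ENSMFAG00000021726), which makes 3 of the 19367 genes of the corrected count table. All 3 were found. No cutoff on a level was used to choose them, but earlier results of these data were known at the time. The wild-type embryos were collected on Day 10 (libraries of 2 and 3 embryos), Day 12 (1 and 2 embryos) and Day 14 (2 and 2 embryos). The ISL1 mutant embryos were injected at the one-cell stage with CRISPR/Cas9 and guide RNAs that cut out a stretch of ISL1, and were collected on Day 10 (1 library of 3 embryos), Day 12 (3 and 1 embryos) and Day 14 (3 and 1 embryos). Injected embryos are mosaics, and each library pools the cells of its embryos, so that 1 library and not 1 embryo is the unit of every comparison. All embryos were grown in culture, and nothing in the labels says whether embryos of different libraries shared parents.

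In an epithelial to mesenchymal transition, cells that adhere to their neighbours through junctions lose these contacts and become motile. The transcription factor SNAI2 (Slug), of the Snail family, represses epithelial genes such as cadherins. VIM encodes vimentin, the intermediate filament protein of mesenchymal cells and their usual marker. OVOL2 is a zinc finger repressor that holds cells in the epithelial state and represses inducers of EMT. During gastrulation epiblast cells pass through such a transition at the primitive streak to become mesoderm, while the amnion and most of the trophoblast are epithelia and the extraembryonic mesenchyme is a loose connective tissue.

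The files held 7194 wild-type and 26136 mutant cells, between 325 and 9625 per library, with a median of 10916 to 142180 unique molecular identifiers (UMIs, each standing for 1 captured transcript) per cell. No file assigned cells to types, so cells were clustered without the 3 genes and without the other genes of the EMT lists described further on, and clusters were named from marker lists. Of all cells, 3011 were epiblast-derived (Epi-derived), 6289 extraembryonic mesenchyme-like (ExE-Mech-like), 485 endoderm-like and 23135 trophoblast-like. Among the Epi-derived cells, 1315 were Epi-like, 156 transition-like, 191 mesoderm-like and 333 amnion-like. The other 4 clusters, of 435, 287, 161 and 133 cells, stayed unnamed. In mutant Day 14 replicate 1, 2 of these held 231 and 130 of the 486 Epi-derived cells. In mutant Day 14 replicate 2 the same 2 held 49 and 29 of 92. The mesoderm-like cells came largely from 1 library, wild-type Day 14 replicate 1 (158 of 191 cells), which also held 131 of the 156 transition-like cells. There were ExE-Mech-like cells in 8 libraries, and none were assigned in either wild-type Day 10 library or in wild-type Day 12 replicate 1. Classes were checked against their markers. The 11 ExE-Mech markers summed to 3825 to 14040 counts per 1000000 UMIs (CPM) in ExE-Mech-like cells and to 21.7 to 151 CPM in trophoblast-like cells. Several trophoblast-like clusters have no trophoblast marker among their 10 leading genes. On Day 10 such clusters held 333 and 184 of the 860 wild-type cells of the class, with 8 and 10 trophoblast markers detected. The Mesoderm marker CDX1 is among the leading genes of both. The Transition markers summed to 1702 to 2504 CPM in transition-like cells, within the range of Epi-like cells (1112 to 3047 CPM) and overlapping with mesoderm-like cells (1834 to 2481 CPM), and 1 of them is among the 10 leading genes of that cluster, beside the trophoblast gene CGA. The Mesoderm markers, whose score entered the naming of transition-like cells, summed to 739 to 966 CPM there and to 68.6 to 160 CPM in Epi-like cells. ISL1 transcripts were present in the mutants, with 8.49 CPM in Epi-derived cells of the Day 10 library, 5.15 and 54.1 CPM at Day 12 and 62.3 and 71.0 CPM at Day 14, against 1.57 to 48.6 CPM in the 6 wild-type libraries. The ranges overlap, so the transcript level does not mark the mutation. In total 124 cell barcodes occurred in more than 1 library (249 cells).

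Among the named classes SNAI2 was highest in the extraembryonic mesenchyme. Its level in ExE-Mech-like cells, as CPM of the summed UMIs of a class in a library, was 86.7 in wild-type Day 12 replicate 2, 88.8 and 76.5 in wild-type Day 14, 81.0 in mutant Day 10, 65.4 and 56.6 in mutant Day 12, and 158 and 112.5 in mutant Day 14 (90.65 ± 31.8, SD, n = 8). Every one of these libraries was above all 11 libraries of Epi-derived cells, which ranged from 0 to 8.19 CPM with a median of 1.07. Neither the endoderm-like cells (0 to 5.93 CPM, median 1.99) nor the trophoblast-like cells (0 to 2.06 CPM, median 0.158) overlapped with the ExE-Mech-like range. The log2 difference of ExE-Mech-like against Epi-derived cells was 5.91 (SE 0.38, adjusted p = 1.52e-12, edgeR), that against endoderm-like cells 5.30 (SE 0.46, adjusted p = 4.38e-10) and that against trophoblast-like cells 7.86 (SE 0.39, adjusted p = 4.46e-15). These classes differ in a large part of the transcriptome: 48.1% of the 12613 genes tested passed the same threshold (adjusted p under 0.01, over all genes tested) between ExE-Mech-like and Epi-derived cells, 44.9% against endoderm-like and 51.1% against trophoblast-like cells. For 13.6%, 9.05% and 17.7% of all genes, respectively, no library of one class reached into the range of the other.

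SNAI2 transcripts outside the mesenchyme were seen only in libraries that held it, among these 11. In the 3 libraries without ExE-Mech-like cells no SNAI2 UMI was counted in Epi-derived, endoderm-like or trophoblast-like cells, where 3 UMIs would have been at most 2.45 CPM. These 3 are all wild-type libraries of Day 10 or Day 12. Wild-type Day 14 replicate 2, with 24.4% ExE-Mech-like cells, had no SNAI2 UMI in Epi-derived cells either. In trophoblast-like cells SNAI2 had 4 to 168 UMIs in each of the 8 other libraries, and its level of 2.06 CPM was highest in mutant Day 14 replicate 1, where the 11 ExE-Mech markers summed to 151 CPM against 21.7 to 85.4 CPM in the trophoblast-like cells of the other 10 libraries. All 11 markers were above 0 there, while in wild-type Day 12 replicate 1 COL3A1, HGF, POSTN, HAND2 and LUM were at 0. Their part in the SNAI2 level was not tested. Between trophoblast-like and Epi-derived cells the log2 difference was -1.95 (SE 0.39, adjusted p = 7.18e-05, edgeR), a comparison in which 64.1% of all genes were called, and it was not called without the library block (-1.66). SNAI2 was also called higher in endoderm-like than in trophoblast-like cells, where 56.2% of all genes were called. It was higher there in 7 of 11 libraries and lower in 1. In endoderm-like against Epi-derived cells, and in amnion-like or transition-like against Epi-like cells, SNAI2 was not called.

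**Figure D1:**
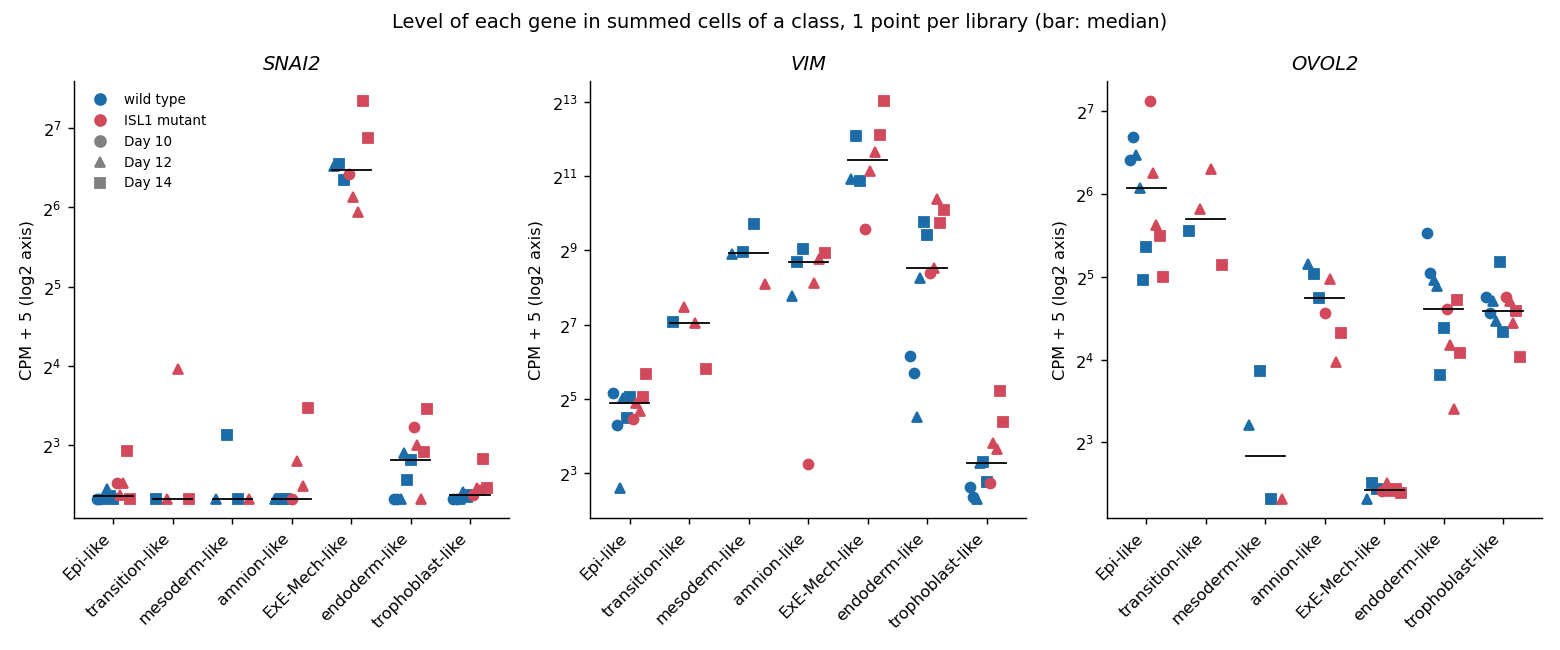
Level of SNAI2, VIM and OVOL2 as CPM + 5 on a log2 axis (y), in the summed cells of 7 classes (x), with 1 point per library of at least 5 cells, coloured by genotype and shaped by day, and the median as a bar. SNAI2 is high in the ExE-Mech-like class alone among these 7, VIM rises from Epi-like over transition-like and mesoderm-like to ExE-Mech-like medians, and OVOL2 is lowest in the ExE-Mech-like and mesoderm-like classes. The SNAI2 point of 10.6 CPM in transition-like cells is 1 UMI in 6 cells.

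VIM was highest in the same class but reached far beyond it. In ExE-Mech-like cells its level was 1930 CPM in wild-type Day 12 replicate 2, 4306 and 1852 CPM in wild-type Day 14, 762 CPM in mutant Day 10, 2267 and 3226 CPM in mutant Day 12, and 4413 and 8322 CPM in mutant Day 14. The lowest of these is the only Day 10 library and the highest a mutant Day 14 library, and the range overlapped with that of Epi-derived cells, which went from 1.05 CPM in wild-type Day 12 replicate 1 over a median of 241 to 1101 CPM in mutant Day 14 replicate 1. Within each of the 8 libraries that held both classes, ExE-Mech-like cells were higher, with a log2 difference of 2.99 (SE 0.42, adjusted p = 4.01e-07). Endoderm-like cells ranged from 18.0 to 1328 CPM with a median of 364, and the log2 difference of ExE-Mech-like against endoderm-like cells was 2.28 (SE 0.40, adjusted p = 1.45e-05). Against Epi-derived cells the endoderm-like cells differed by 0.71 (SE 0.38, adjusted p = 0.107), which was not called.

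Trophoblast-like cells had the least VIM of the 4 main classes, with 0 to 32.5 CPM and a median of 4.64. They were below the Epi-derived cells of the same library in 11 of 11 libraries, by a log2 difference of -5.77 (SE 0.44, adjusted p = 5.58e-13), and below all ExE-Mech-like sums without overlap (log2 difference of ExE-Mech-like against trophoblast-like cells 8.76, SE 0.50, adjusted p = 1.07e-15). Across the libraries the ranges of trophoblast-like and Epi-derived cells overlapped because of wild-type Day 12 replicate 1, where only 14 Epi-derived cells with 2 VIM UMIs were found. Endoderm-like cells had more VIM than the trophoblast-like cells of the same library in 11 of 11 libraries. VIM was called in that comparison, where 56.2% of all genes were called.

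OVOL2 was highest in Epi-like and lowest in ExE-Mech-like cells, by the medians of the 7 named classes over libraries of all days. Of the 4 libraries that also held transition-like cells, OVOL2 was higher in Epi-like cells in 2 and lower in 2. In Epi-like cells its level was 80.2 and 97.7 CPM in wild-type Day 10, 83.8 and 62.4 CPM in wild-type Day 12, 26.2 and 36.2 CPM in wild-type Day 14, 134 CPM in mutant Day 10, 71.1 and 44.3 CPM in mutant Day 12, and 39.8 and 26.9 CPM in mutant Day 14. The level was higher on Day 10 than on Day 14 in both genotypes. In ExE-Mech-like cells OVOL2 was close to absent, from 0 UMIs in wild-type Day 12 replicate 2 to 0.697 CPM in mutant Day 12 replicate 1, and these 8 sums held 48 OVOL2 UMIs in 6289 cells. They overlapped with no other main class. The log2 difference was -6.66 (SE 0.34, adjusted p = 4.86e-16) against Epi-derived, -5.12 (SE 0.36, adjusted p = 4.66e-13) against endoderm-like and -5.43 (SE 0.33, adjusted p = 4.47e-15) against trophoblast-like cells.

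The endoderm-like and trophoblast-like classes held intermediate OVOL2 levels, with medians of 19.5 CPM (5.55 to 41.2) and 19.1 CPM (11.3 to 31.2), respectively, against 41.0 CPM (25.3 to 121) in Epi-derived cells. Endoderm-like cells were lower than the Epi-derived cells of the same library in 11 of 11 libraries (log2 difference -1.53, SE 0.24, adjusted p = 2.84e-06), in a comparison that called 50.9% of all genes. Trophoblast-like cells were lower in 10 of 11 libraries, the exception being wild-type Day 14 replicate 1 (31.2 against 25.3 CPM), and the log2 difference was -1.23 (SE 0.21, adjusted p = 5.58e-06). With the Day 14 libraries alone both differences kept their sign and lost the call (-1.26 and -0.61).

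In mesoderm-like cells VIM was higher and OVOL2 lower than in Epi-like cells. Whether these cells had left the epithelium was not tested. Mesoderm-like cells had 477 CPM of VIM in wild-type Day 12 replicate 2 (13 cells), 489 CPM in wild-type Day 14 replicate 1 (158 cells), 841 CPM in wild-type Day 14 replicate 2 (6 cells) and 271 CPM in mutant Day 12 replicate 1 (9 cells). All 4 lie above the 11 libraries of Epi-like cells, whose VIM was 1.05 to 46.0 CPM with a median of 24.7. The log2 difference was 3.62 (SE 0.58, adjusted p = 7.99e-06). In this comparison 7.42% of the 11783 genes tested were called, and 4.91% did not overlap.

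For OVOL2 the same 4 mesoderm-like sums held 4.26, 9.49, 0 and 0 CPM in that order, from 2, 72, 0 and 0 UMIs. None reached the lowest Epi-like library (26.2 CPM), and the log2 difference was -3.15 (SE 0.46, adjusted p = 1.17e-06), or -4.77 without wild-type Day 14 replicate 1. For sums without a UMI, 3 UMIs would have been 19.7 CPM in wild-type Day 14 replicate 2 and 19.8 CPM in mutant Day 12 replicate 1, so that these small groups allow a level up to about that, still below the Epi-like range. For VIM and OVOL2 the call was lost with the mutant libraries alone, where 1 library holds mesoderm-like cells, and with sums of at least 20 cells, which leave wild-type Day 14 replicate 1 as the only mesoderm-like sum.

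SNAI2 in mesoderm-like cells rested on 1 library. It had 28 UMIs (3.69 CPM) in wild-type Day 14 replicate 1 and none in the other 3 sums, while the Epi-like libraries lay between 0 and 2.57 CPM, so that the groups overlapped. The fit gave a log2 difference of 3.02 (SE 0.78, adjusted p = 0.00624), which turned to -5.98 without wild-type Day 14 replicate 1, where no mesoderm-like sum is left with a UMI, and lost its call without wild-type Day 12 replicate 2 (3.24), wild-type Day 14 replicate 2 (3.04) or mutant Day 12 replicate 1 (2.91). The level was low beside the mesenchyme: ExE-Mech-like cells were above all 4 mesoderm-like sums by 4.41 on the log2 scale (SE 0.59, adjusted p = 1.83e-07), in a comparison that called 23% of all genes and in which 15.4% did not overlap. That value rests on wild-type Day 14 replicate 1, without which all mesoderm-like sums are at 0 and the fitted value (13.04) is no estimate of size. VIM was higher in ExE-Mech-like than in mesoderm-like cells of the same library in 4 of 4 libraries (log2 difference 2.48, SE 0.63, adjusted p = 0.00166), but the ranges overlapped and the call was lost without wild-type Day 14 replicate 1 (2.28) or mutant Day 12 replicate 1 (2.26). For OVOL2 the fitted difference between these classes was -3.83 (SE 0.50, adjusted p = 4.77e-08) and depended on wild-type Day 14 replicate 1 (-2.38 and no call without it), while the level was higher in mesoderm-like cells in 2 of the 4 libraries and lower in the other 2, where it was at 0. The ExE-Mech markers in the mesoderm-like cells summed to 53.2 to 118 CPM, a range that overlaps that of Epi-like cells (36.2 to 114 CPM), with LUM at 0 in 3 of the 4 sums.

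**Figure D2:**
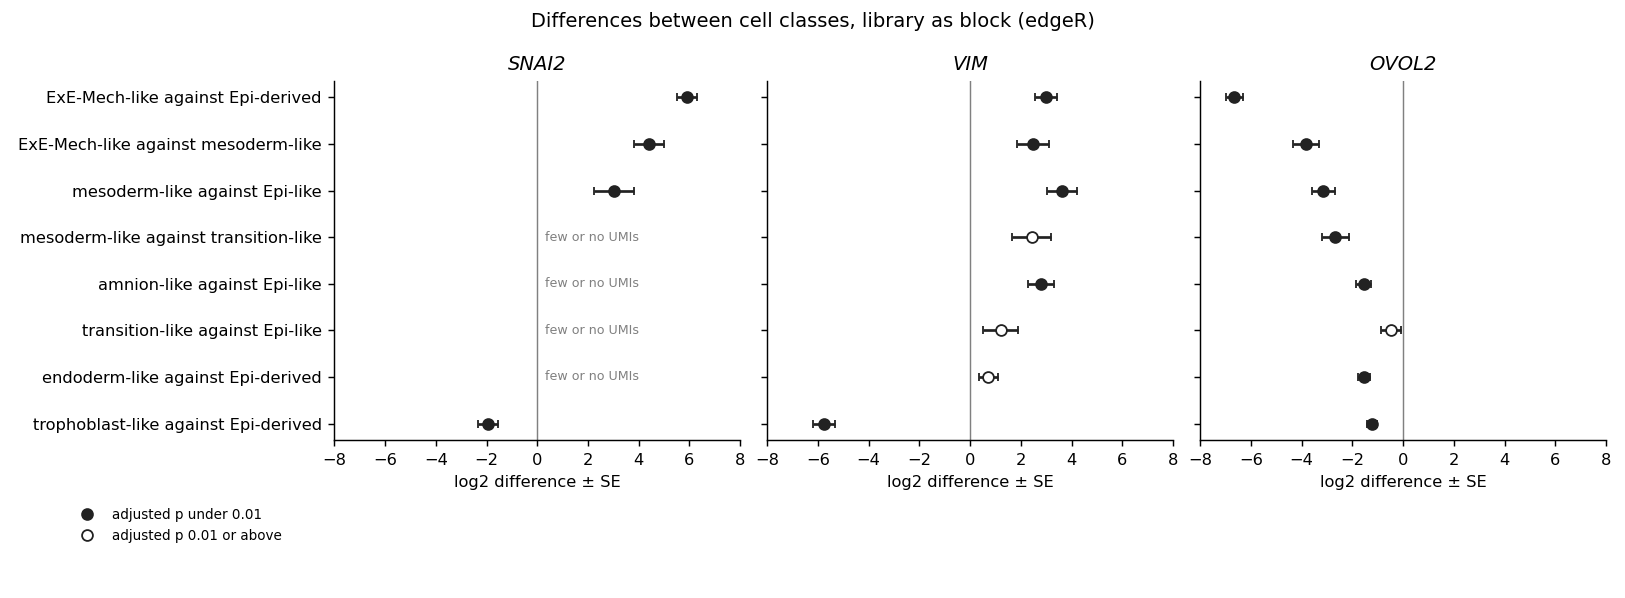
Log2 difference with its standard error (x) of SNAI2, VIM and OVOL2 in 8 comparisons of cell classes (y), fitted with the library as a block; filled points passed an adjusted p of 0.01. VIM points lie to the right and OVOL2 points to the left of 0 for the mesenchymal and mesoderm-like classes. Comparisons in which SNAI2 had few or no UMIs carry no point.

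The transition-like cells lay between these. Their VIM was 129 CPM in wild-type Day 14 replicate 1 (131 cells), 172 and 127 CPM in mutant Day 12 (7 and 6 cells) and 50.7 CPM in mutant Day 14 replicate 1 (8 cells). These values are above all Epi-like libraries (46.0 CPM at most) and below all mesoderm-like ones (271 CPM at least). Neither difference passed the threshold (edgeR). On the log2 scale it was 1.20 (SE 0.68, adjusted p = 0.64) from Epi-like and 2.42 (SE 0.76, adjusted p = 0.119) to mesoderm-like cells. These comparisons called 0.365% and 0.586% of all genes, and for 1.3% and 5.43% of them the groups did not overlap.

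OVOL2 in transition-like cells was 41.9 CPM in wild-type Day 14 replicate 1 and 51.5 and 73.95 CPM in mutant Day 12. In mutant Day 14 replicate 1 it was 30.4 CPM. These values lie within the range of the Epi-like libraries over all days. The log2 difference from Epi-like cells was -0.48 (SE 0.40, adjusted p = 0.84, edgeR), which was not called and does not show that the levels are alike. From transition-like to mesoderm-like cells it was -2.67 (SE 0.53, adjusted p = 0.00283), with no overlap between the groups. That call was lost without any one of wild-type Day 12 replicate 2, wild-type Day 14 replicate 1 (-4.35), wild-type Day 14 replicate 2 or either mutant Day 12 library. Only 2 libraries held sums of both classes. In wild-type Day 14 replicate 1, the only library with over 100 cells of both classes, VIM was 17.4 CPM in Epi-like, 129 in transition-like and 489 in mesoderm-like cells, and OVOL2 26.2, 41.9 and 9.49 CPM.

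The summed amnion-like cells held both VIM and OVOL2, as did the endoderm-like ones. VIM was 213.5 CPM in wild-type Day 12 replicate 2, 406 and 519 CPM in wild-type Day 14, 276 and 431 CPM in mutant Day 12, 485 CPM in mutant Day 14 replicate 1, and 4.45 CPM (5 UMIs in 14 cells) in mutant Day 10. Apart from the Day 10 library, all were above the Epi-like range, and the log2 difference was 2.80 (SE 0.51, adjusted p = 2.27e-05). OVOL2 was 30.5, 27.8, 21.9, 26.4, 10.7, 15.05 and 18.7 CPM in the same order of libraries, below the Epi-like cells of the same library in 6 of 7, the exception being wild-type Day 14 replicate 1 (27.8 against 26.2 CPM). Its log2 difference was -1.56 (SE 0.29, adjusted p = 2.24e-05), with overlapping groups, and was not called with the wild-type libraries alone (-1.06), the Day 14 libraries alone (-0.64) or at a cluster resolution of 0.4 in place of 0.8 (-0.53). This comparison called 24.2% of all genes, and 4.6% did not overlap.

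Set against mesoderm-like cells, the amnion-like cells had more OVOL2 as counted (10.7 CPM or more against 9.49 CPM or less), but the sums of 6 and 9 mesoderm-like cells at 0 allow levels within the amnion-like range, and the log2 difference of mesoderm-like against amnion-like cells (-1.58, SE 0.47, adjusted p = 0.0307) was not called. For VIM it was 0.82 (SE 0.57, adjusted p = 0.494). This comparison called 3.38% of all genes, and 4.84% did not overlap. From transition-like to amnion-like cells the log2 differences were 1.60 (SE 0.69, adjusted p = 0.156) for VIM and -1.08 (SE 0.42, adjusted p = 0.111) for OVOL2, in a comparison that called 3.28% of all genes. SNAI2 was at 0 in 4 of 7 amnion-like sums and had 1 or 2 UMIs in each of the other 3. In medians, the order for VIM was ExE-Mech-like (2746 CPM), mesoderm-like (483), amnion-like (406), endoderm-like (364), transition-like (128), Epi-like (24.7) and trophoblast-like (4.64), and that for OVOL2 Epi-like (62.4), transition-like (46.7), amnion-like (21.9), endoderm-like (19.5), trophoblast-like (19.1), mesoderm-like (2.13) and ExE-Mech-like (0.381). Of the neighbours in these orders that were compared, mesoderm-like and amnion-like cells and transition-like and Epi-like cells were not called for VIM. For OVOL2 the neighbours not called were Epi-like and transition-like, transition-like and amnion-like, and endoderm-like and trophoblast-like cells (log2 difference -0.31, SE 0.25, adjusted p = 0.281, where 56.2% of all genes were called). Both orders pool days, and transition-like and mesoderm-like sums come from Days 12 and 14 only. With Day 14 alone the VIM median was 857 CPM in endoderm-like, 665 in mesoderm-like and 485 in amnion-like cells, another order. OVOL2 was higher in Epi-like than in transition-like cells in 2 of the 4 libraries with both, and lower in the other 2.

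Unnamed clusters of Epi-derived cells carried part of the VIM. The cluster led by IGFBP5, WFDC2 and CTHRC1 came almost entirely from mutant Day 14 embryos (231 and 49 of 287 cells) and had 2452 and 2134 CPM of VIM with 26.9 and 32.4 CPM of OVOL2 and 13.8 and 4.80 CPM of SNAI2. VIM was thus within the ExE-Mech-like range and OVOL2 within the Epi-like range. Markers of several classes were present in it. The ExE-Mech markers summed to 2372 and 1336 CPM (all 11 above 0), the amnion markers to 1170 and 1917 CPM (all 15 above 0, against a median of 2198 CPM in amnion-like cells) and the trophoblast markers to 2142 and 826 CPM (all 12 above 0). ISL1 was at 140 and 198 CPM, and its cells had a median of 5809 UMIs. By marker score alone it would have been named amnion-like. The cluster with HOXB6, HAND1 and HGF among its leading genes had 276 to 1480 CPM of VIM in 7 libraries, 0 to 42.3 CPM of OVOL2 and 0 to 40.9 CPM of SNAI2. On Day 10 its 3 sums had 276 to 772 CPM of VIM and no SNAI2 UMI. SNAI2 was 8.79 to 22.3 CPM on Day 12 and 40.9 CPM in the only Day 14 sum. By marker score alone this cluster would have been named mesoderm-like. Its ExE-Mech markers summed to 92.4 to 4161 CPM, and 3 of them are among its 10 leading genes. The cluster with CDX1, CDX2 and CDX4 among its leading genes had 23.1 to 385 CPM of VIM and 36.25 to 151 CPM of OVOL2 in 7 libraries, the latter overlapping with the Epi-like range. By marker score alone it would have been named transition-like. The last cluster, with the stress genes DDIT3 and DDIT4 among its leading genes, had 366 and 118 CPM of VIM and 14.3 and 28.1 CPM of OVOL2 in the mutant Day 14 libraries. The trophoblast markers INSL4 and LAIR2 are also among its 10 leading genes, and the 12 trophoblast markers summed to 1094 and 285 CPM. Its name by marker score alone would have been Epi-like. A further unnamed Day 14 cluster outside the Epi-derived cells (94 cells, with RGS5, LMO2, VIM and VWF among its leading genes) was left out of all classes. No test was made on these clusters.

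The same counts were also read in single cells, as shares of cells with a UMI. To compare classes of different depth, each cell was thinned to 10000 UMIs, and cells below that were left out. In mutant Day 14 replicate 1 this left out 4161 of 9625 cells. At that depth 99.4% of 4970 ExE-Mech-like cells had a VIM UMI (exact 95% binomial interval 99.1% to 99.6%), 86.1% of 187 mesoderm-like cells (80.3% to 90.7%), 62.4% of 274 amnion-like cells, 61.0% of 146 transition-like cells, 49.5% of 327 endoderm-like cells and 16.7% of 1236 Epi-like cells (14.6% to 18.9%). The lowest share of the 7 classes was that of trophoblast-like cells, with 2.60% of 19064 cells (2.38% to 2.84%), and the part of free RNA in it was not tested. Before thinning the shares were 40.1% in Epi-like cells, at a median of 38840 UMIs, and 4.63% in trophoblast-like cells, at a median of 20797. By median CPM of VIM endoderm-like cells (364 CPM) stood above transition-like cells (128 CPM), unlike by the thinned shares. The thinned shares of VIM pool libraries of different days. In wild-type Day 14 replicate 1 the order was another, with VIM in 36 of 47 endoderm-like, 76 of 126 transition-like and 42 of 77 amnion-like cells. Intervals cover counting error only, since cells of 1 library are not independent replicates.

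An OVOL2 UMI was found in 46.5% of thinned Epi-like cells (43.7% to 49.4%), 37.7% of transition-like cells, 19.7% of amnion-like cells, 14.98% of endoderm-like cells, 14.8% of trophoblast-like cells and 8.02% of mesoderm-like cells (4.56% to 12.9%). These shares pool libraries of different days. In wild-type Day 14 replicate 1, which holds 126 of the 146 thinned transition-like cells, the order was another, with OVOL2 in 34.9% of transition-like, 25.97% of amnion-like and 19.65% of 173 Epi-like cells. In ExE-Mech-like cells, the class that should lack it, the share was 0.322% (0.184% to 0.522%), or 16 of 4970 cells. SNAI2 was found in 50.6% of thinned ExE-Mech-like cells (49.2% to 52.0%), and in 3.21% of mesoderm-like cells (1.19% to 6.85%, 6 of 187 cells), 0.566% of Epi-like cells and 0.572% of trophoblast-like cells, where the part of free RNA was not tested either. Unthinned shares of SNAI2 were 67.2% in ExE-Mech-like cells, at a median of 16419 UMIs, 8.38% in mesoderm-like cells, at a median of 39404, and 1.16% in trophoblast-like cells.

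**Figure D3:**
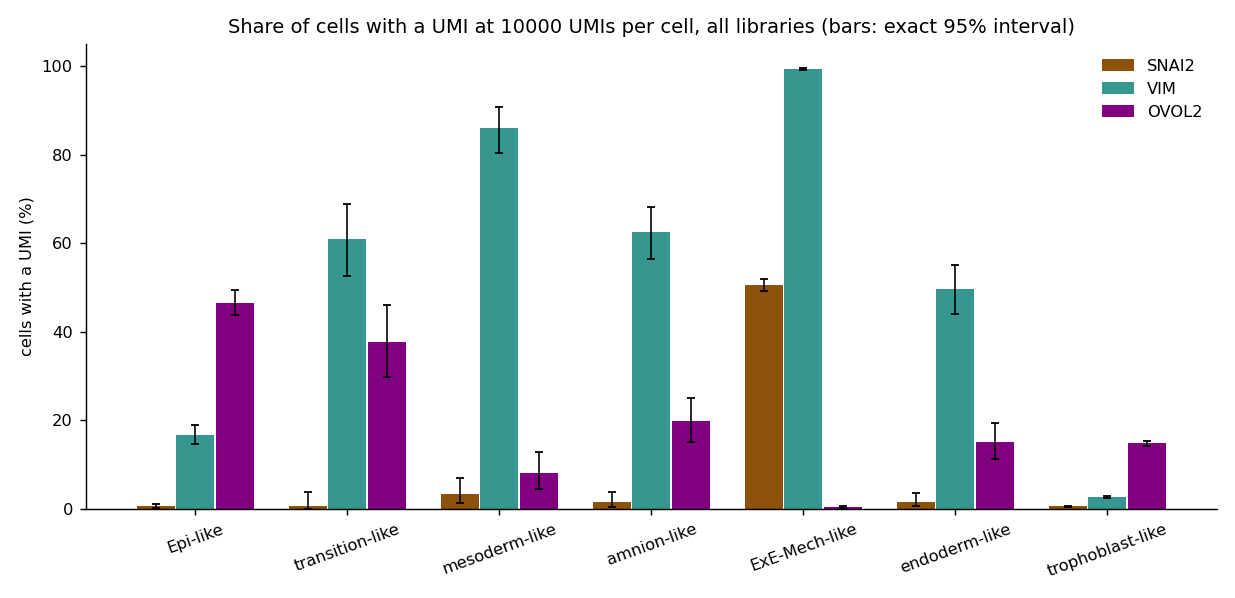
Share of cells with at least 1 UMI (y, percent) of SNAI2, VIM and OVOL2 in 7 cell classes (x), each cell thinned to 10000 UMIs, over all libraries, with exact 95% binomial intervals as error bars. VIM falls from 99.4% in ExE-Mech-like to 2.60% in trophoblast-like cells, OVOL2 is at 46.5% in Epi-like cells of all days together (19.65% in wild-type Day 14 replicate 1), and SNAI2 exceeds 5% in the ExE-Mech-like class alone.

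VIM and OVOL2 were seen together in part of the transition-like cells. At 10000 UMIs per cell, 24.7% of the 146 transition-like cells had a UMI of both, 36.3% of VIM alone, 13.01% of OVOL2 alone and 26.03% of neither. Among mesoderm-like cells 5.88% had both and 80.2% VIM alone, among Epi-like cells 7.77% had both and 38.8% OVOL2 alone, and among amnion-like cells 10.95% had both. Shares near that of transition-like cells were found in the unnamed clusters with CDX1, CDX2 and CDX4 (22.1% of 398 cells) and with IGFBP5 (23.0% of 74 cells). The latter cluster holds 287 cells with a median of 5809 UMIs, so its share covers only the deepest of them. Of the transition-like cells with VIM, 40.45% also had OVOL2, against 33.3% of those without VIM, but in wild-type Day 14 replicate 1, which holds 126 of these cells, the shares were 35.5% and 34%. In Epi-like cells they were 46.6% and 46.5%, in amnion-like cells 17.5% and 23.3%, and in mesoderm-like cells 6.83% and 15.4%. In ExE-Mech-like cells 16 of 4938 cells with VIM had OVOL2. Of the 2513 ExE-Mech-like cells with a SNAI2 UMI, 2499 had VIM and 9 had OVOL2. These counts describe cells pooled over libraries and carry no test.

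The other genes of the transition were followed in lists, from which genes without an identifier dropped out: 4 of 10 EMT transcription factors, 11 of 15 mesenchymal effectors, 15 of 23 epithelial genes and 11 of 11 upstream ligands and targets could be read. Identifiers came from the supplementary tables of the study, many of which list genes that it found to differ between these same cells. The genes read were thus not picked independently of the data. Shares and medians over all genes are therefore no like background for the lists, and no enrichment is read from them. SNAI1, ZEB1, TWIST1 and CDH1 (E-cadherin) are among those not analysed here. SNAI2, VIM and OVOL2 are each counted in their list. In ExE-Mech-like against Epi-derived cells, 10 of 11 effectors rose and none fell, with a median log2 difference of 2.58 against 0.02 over all genes tested, of which 24.7% rose and 23.4% fell. Besides VIM, the largest were the matrix protein gene TGFBI (3.58, SE 0.38, adjusted p = 2.72e-09) and the actin-binding gene TAGLN (3.34, SE 0.41, adjusted p = 4.22e-08). CDH2, which encodes N-cadherin, rose by 2.92 (SE 0.38) and FN1, which encodes fibronectin, by 2.68 (SE 0.55), both called. The FN1 call was lost with the Day 14 libraries alone (2.42).

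Among the 4 transcription factors in that comparison SNAI2 and ZEB2, a zinc finger repressor of E-cadherin, rose, the latter by 5.82 (SE 0.39, adjusted p = 1.37e-12), and GSC fell. Of the 15 epithelial genes 10 fell and 2 rose, with a median of -2.27. The tight junction gene CLDN10 fell by 8.80 on the log2 scale (SE 0.50), the Rab GTPase gene RAB25 by 4.62 (SE 0.44), the P-cadherin gene CDH3 by 4.30 (SE 0.37) and EPCAM, an adhesion molecule of epithelia, by 2.18 (SE 0.65), all with an adjusted p under 0.01. The EPCAM call was lost without any one of 6 libraries (both mutant Day 12, both mutant Day 14 and both wild-type Day 14 libraries). The keratin gene KRT18 did not differ beyond its error (-0.12, SE 0.37, adjusted p = 0.807), and the junction gene DSP and the membrane linker gene EZR rose. Of the 11 upstream genes 7 fell, WNT8A, FGF4 and ID1 with the largest differences, and BAMBI rose.

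In mesoderm-like against Epi-like cells 3 of the 11 effectors rose and none fell: CDH2 by 4.89 (SE 0.43, adjusted p = 5.70e-12), VIM, and the tropomyosin gene TPM1 by 2.37 (SE 0.58, adjusted p = 0.00301). The median over the list was 0.33 against -0.05 over all genes, of which 4.69% rose and 2.72% fell. FN1 differed by 0.65 (SE 0.89, adjusted p = 0.763). GSC, the transcription factor of the organizer, rose by 4.77 (SE 0.53, adjusted p = 3.05e-09), TCF4 rose as well, and ZEB2 differed by 2.20 (SE 1.02, adjusted p = 0.172). Without wild-type Day 14 replicate 1 the calls of GSC (2.93) and TPM1 (2.70) were lost, and that of TPM1 also without wild-type Day 12 replicate 2 (1.94). Over all 24 alternatives the call was kept under 23 for CDH2, 21 for GSC and 17 for TPM1.

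The epithelial list had no common direction in mesoderm-like cells. Of its 15 genes 4 rose, all of them genes of keratins or of the desmosome that keratins attach to (KRT8, KRT18, KRT19 and DSP), 4 fell (OVOL2, KRT7, CLDN10 and ITGA6) and 7 were not called. KRT18 rose by 2.59 (SE 0.45, adjusted p = 2.63e-05), while KRT7 fell by 3.70 (SE 0.67, adjusted p = 6.62e-05) and CLDN10 by 2.40 (SE 0.62, adjusted p = 0.00505). The KRT18 call was lost with the wild-type (1.91) or mutant libraries (3.26) alone, without the library block (1.36) and with at least 20 cells (1.86), and that of KRT7 with the Day 14 (-2.72) or mutant libraries alone (-13.81) and with at least 20 cells (-3.68). The CLDN10 call was kept under 12 of 24 alternatives. It turned to 2.29 with a cluster resolution of 1.6 and was not called without wild-type Day 14 replicate 1 (-1.20) or mutant Day 12 replicate 1 (-2.45). EPCAM (0.18, SE 0.59, adjusted p = 0.93) and CDH3 (-0.37, SE 0.41, adjusted p = 0.687) were not called. Of the 11 upstream genes 8 rose and none fell, among them WNT8A, WNT3 and BMP4. The median of the list was 1.67.

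In amnion-like against Epi-like cells the effectors and the epithelial genes rose side by side. Of the 11 effectors 7 rose and none fell, with a median of 2.66 against 0.06 over all genes, of which 15% rose and 9.14% fell. TPM1 rose by 4.72 (SE 0.47, adjusted p = 4.52e-11), FN1 by 4.33 (SE 0.62, adjusted p = 2.76e-07) and CDH2 by 2.66 (SE 0.42, adjusted p = 1.75e-06). Of the 15 epithelial genes 9 rose, and OVOL2 was the only one that fell. CLDN10 rose by 5.25 (SE 0.29, adjusted p = 3.38e-19), KRT18 by 4.67 (SE 0.39, adjusted p = 3.31e-13), EPCAM by 1.63 (SE 0.45, adjusted p = 0.00354) and CDH3 by 0.94 (SE 0.29, adjusted p = 0.00838). The FN1 call was lost at resolution 0.4 (2.34) and with the wild-type libraries alone (3.01), and that of CDH2 with clusters within each library (2.37) and the Day 14 libraries alone (2.33). The CDH3 call was lost without any one of 9 of the 11 libraries and kept under 5 of 24 alternatives, and that of EPCAM was lost without any one of 5 libraries and kept under 12 of 24. No EMT transcription factor was called. CLDN10 is among the 10 leading genes of both amnion-like clusters.

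**Figure D4:**
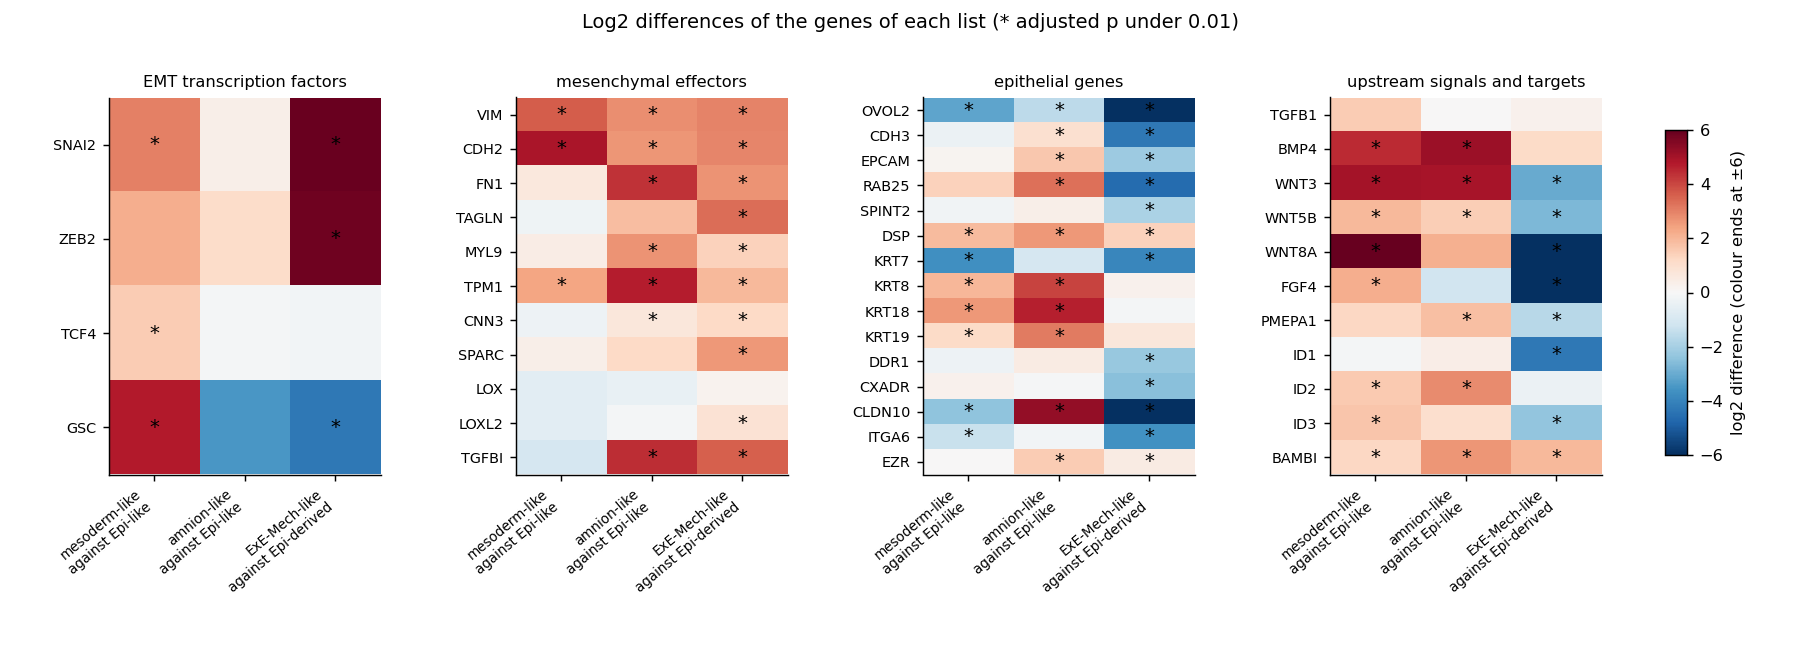
Log2 difference (colour, red higher and blue lower, ending at ±6) of the genes with an identifier in 4 lists (rows) in 3 comparisons of cell classes (columns), with * for an adjusted p under 0.01. In the epithelial panel 10 of 15 genes fell in ExE-Mech-like cells, 4 fell and 4 rose in mesoderm-like cells, and 9 rose in amnion-like cells.

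The mutant embryos were compared with the wild type to see whether these genes change without normal ISL1. None of the 3 genes was called in the classes where it could be tested, at Day 14 or over all days. At Day 14 those not tested included SNAI2 in Epi-derived, endoderm-like and Epi-like cells and OVOL2 in ExE-Mech-like cells. SNAI2 in Epi-derived cells was then 0 and 1.52 CPM in the wild-type and 1.94 and 8.19 CPM in the mutant libraries. These values do not overlap, as was the case for 58.4% of the genes tested in that class. At Day 14 the Epi-derived cells had 241 and 395 CPM of VIM in the wild-type and 1101 and 787 CPM in the mutant libraries. The mutant values were higher without overlap. In this comparison of 2 with 2 libraries 58.4% of all genes did not overlap, and the log2 difference was 1.59 (SE 0.31, adjusted p = 0.0321). The call appeared with DESeq2 (1.61) and without a filter on low counts (1.61). Without wild-type Day 14 replicate 2, which leaves 1 wild-type library, the difference was 1.94. The main fit called 0.559% of all genes (56 of 10014). DESeq2 and the fit without a filter called many more genes here, with counts given in the closing section. Over all days the difference was 0.37 (SE 0.84, adjusted p = 0.844; 0.03 to 1.58 without 1 library), and on Day 10 the mutant library was lower (52.9 CPM) than both wild-type libraries (204 and 72.4 CPM). Of the other list genes LOX and TGFB1 rose and WNT5B fell in this comparison. In mutant Day 14 replicate 1, 3916 of the 4703 VIM UMIs, and in replicate 2, 1778 of 2026, came from the unnamed cluster led by IGFBP5, and the ExE-Mech markers in Epi-derived cells summed to 1102 and 499 CPM in the mutant against 106 and 143 CPM in the wild-type libraries, with all 11 above 0 in each. The amnion markers summed to 771.5 and 929 CPM against 353 and 850 CPM, and the trophoblast markers to 1284 and 437.5 CPM against 389 and 112 CPM. The part of these cells in the result was not tested. In the named Epi-like cells VIM was 17.4 and 28.4 CPM in wild-type and 28.3 and 46.0 CPM in mutant libraries, which overlap (log2 difference 0.78, SE 0.52, adjusted p = 0.997).

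In ExE-Mech-like cells at Day 14, VIM (log2 difference 1.10, SE 0.60, adjusted p = 0.453) and SNAI2 (0.75, SE 0.28, adjusted p = 0.314) were higher in both mutant than in both wild-type libraries, which held for 49% of all genes in either direction, and neither was called. Over all days the differences were 0.90 (SE 0.40, adjusted p = 0.317) for VIM and 0.26 (SE 0.28, adjusted p = 0.666) for SNAI2. At Day 14 this comparison called 0.00847% of all genes and over all days none of 12658 (edgeR; 2070 at an unadjusted p under 0.05). The class was made of different clusters here too. In the largest cluster of both genotypes at Day 14 (346 of 496 wild-type and 1563 of 3375 mutant cells), VIM was 3134 CPM (11 cells) and 1832 CPM in the wild-type and 3757 and 4826 CPM in the mutant libraries, while SNAI2 overlapped, with 135 and 77.1 CPM against 149 and 100.6 CPM.

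In trophoblast-like cells VIM and SNAI2 had higher fitted levels in the mutant, without a call. At Day 14 VIM was 4.96 and 1.78 CPM in wild-type and 32.5 and 16.1 CPM in mutant libraries, and SNAI2 0.0632 and 0.158 CPM against 2.06 and 0.476 CPM. Both genes were higher in both mutant libraries, as 46.8% of all genes were higher or lower without overlap. The log2 difference was 2.77 (SE 0.66) for VIM and 3.70 (SE 0.96) for SNAI2, each with an adjusted p of 0.345, and over all days 2.13 (SE 0.85, adjusted p = 0.206) and 2.98 (SE 0.84, adjusted p = 0.104). At Day 14 none of the 13838 genes tested was called (0% by edgeR, with 1720 at an unadjusted p under 0.05). ExE-Mech-like cells made up 4.975% and 24.4% of the cells of the wild-type and 24.3% and 26.8% of the cells of the mutant Day 14 libraries, and the correction for free RNA had removed 2.98% and 0.457% against 8.77% and 3.22% of the UMIs. ExE-Mech markers in the trophoblast-like cells summed to 45.4 and 85.4 CPM in the wild-type and 151 and 76.95 CPM in the mutant libraries. Their part in the result was not tested.

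The genotypes also held different trophoblast-like clusters at Day 14. Of 3277 wild-type cells 1295, 870 and 493 were in 3 clusters that held 12, 9 and 3 of the 9195 mutant cells, while 2325, 1448 and 1192 mutant cells were in 3 clusters that held 13, 3 and 1 wild-type cells. In a cluster of both genotypes, with SERPINE2, LAIR2 and ISM2 among its leading genes, VIM was 0.742 CPM (168 cells) and 2.35 CPM (9 cells, 1 UMI) in the wild-type and 105.4 and 19.7 CPM (725 and 156 cells) in the mutant libraries. SNAI2 there was 0.0742 and 0 CPM against 4.49 and 0.263 CPM, from 1, 0, 59 and 2 UMIs. No test was made within clusters.

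Endoderm-like cells at Day 14 had 866 and 680 CPM of VIM in wild-type and 847 and 1085 CPM in mutant libraries (log2 difference 0.35, SE 0.34, adjusted p = 0.891). OVOL2 was close between the genotypes in Epi-derived cells at Day 14, with 25.3 and 37.8 CPM in the wild-type and 25.5 and 30.3 CPM in the mutant libraries. With 2 libraries per group such values do not show that the genotypes are alike. In the further genotype comparisons few genes passed at all, with 0.0157% of genes called in amnion-like cells at Day 14 and, over all days, 0.121% in Epi-derived, 0.0514% in endoderm-like, 0.00662% in trophoblast-like, 0.0291% in Epi-like, 0.0826% in mesoderm-like, 0.0443% in amnion-like and 0.333% in transition-like cells. The mutant side of the amnion-like comparison at Day 14 and of the mesoderm-like one, and the wild-type side of the transition-like one, is 1 library, which the fit takes to vary like the others, so nothing is read from these 3 comparisons.

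**Figure D5:**
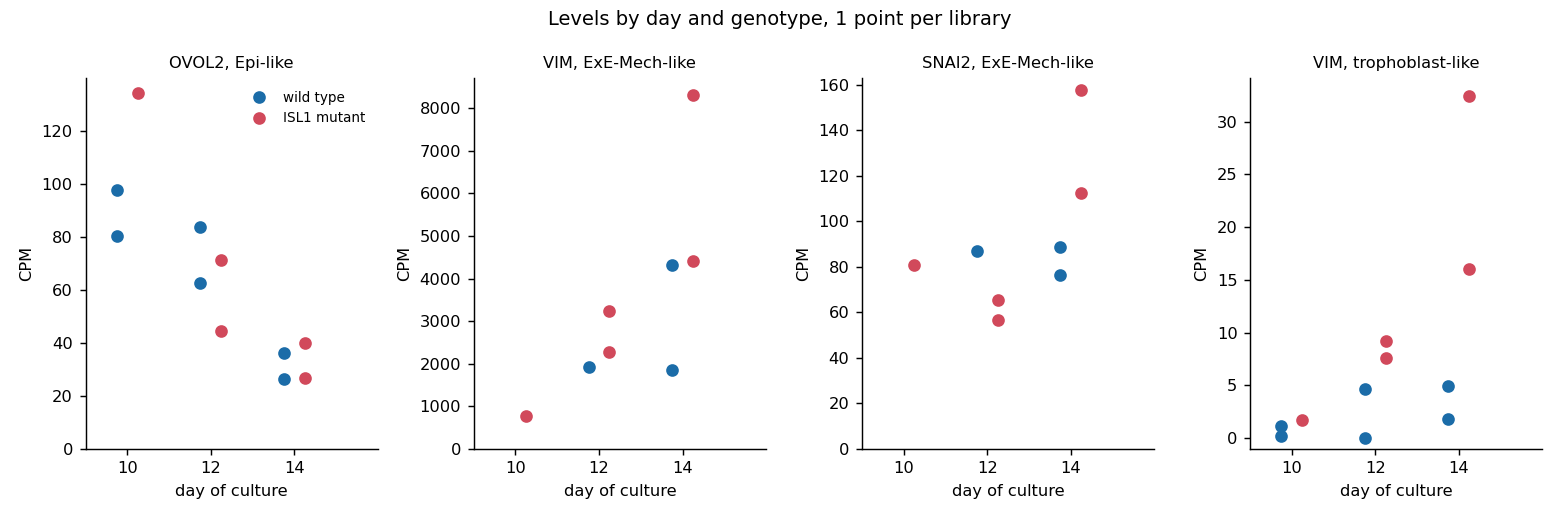
Level in CPM (y) by day of culture (x) of OVOL2 in Epi-like, VIM and SNAI2 in ExE-Mech-like and VIM in trophoblast-like cells, 1 point per library, with wild type in blue and ISL1 mutant in red. OVOL2 in Epi-like cells lies at 80.2 to 134 CPM on Day 10 and at 26.2 to 39.8 CPM on Day 14, and VIM in ExE-Mech-like cells goes from 762 CPM in the Day 10 library to 1852 to 8322 CPM on Day 14.

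Epi-like cells of Day 14 had less OVOL2 than those of Day 10. The level was 80.2, 97.7 and 134 CPM in the 3 Day 10 libraries, 44.3 to 83.8 CPM in the 4 Day 12 libraries and 26.2 to 39.8 CPM in the 4 Day 14 libraries, so that Day 10 and Day 14 did not overlap, which was true of 17.4% of all genes. The log2 difference of Day 14 against Day 10 was -1.71 (SE 0.27, adjusted p = 0.00158), in a comparison that called 1.97% of all genes, and it lost the call without mutant Day 10 (-1.41) or wild-type Day 14 replicate 1 (-1.59). The Epi-like class was made of different clusters on these days, so that a change within a cell state and a change of states cannot be told apart. On Day 10, 294 of 320 wild-type cells were in a cluster led by IGFBP6, MT3 and CD53. It has no Epi marker and 1 blood marker (CD53) among its 10 leading genes, but all 10 Epi markers were detected in it. NLRP7 and OOEP, which the study places with the naive state, are also among its leading genes. Of the mutant Day 10 cells, 176 of 195 were in a cluster with SFRP2 and OVOL2 among its leading genes. On Day 14, 181 of 190 wild-type and 39 of 70 mutant cells were in a cluster with SFRP1 and SHISAL2B among its leading genes.

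Within single clusters the OVOL2 levels were as follows, with no test. In the cluster with SFRP2, wild-type cells had 83.0 CPM on Day 10, 83.8 and 62.95 CPM on Day 12 and 54.9 CPM (9 UMIs in 5 cells) on Day 14, and mutant cells 134.6 CPM on Day 10 and 105.5 CPM on Day 12. In the cluster with SHISAL2B the level was 68.9 CPM in mutant Day 12 replicate 1, and on Day 14 it was 26.2 and 22.4 CPM in wild-type libraries and 40.5 CPM in mutant replicate 1.

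Over all Epi-derived cells it was -1.56 (SE 0.36, adjusted p = 0.0268), where 0.86% of all genes were called. VIM in Epi-derived cells was 52.9 to 204 CPM on Day 10 and 241 to 1101 CPM on Day 14 without overlap, as was the case for 22.5% of all genes, with a log2 difference of 2.31 (SE 1.10, adjusted p = 0.204). In Epi-like cells the keratin genes KRT18 and KRT8, the mesenchymal effector SPARC and the ligand gene WNT5B also fell over this interval, and none of the list genes tested rose (1 of 4 transcription factors, 9 of 11 effectors, 15 of 15 epithelial and 10 of 11 upstream genes).

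VIM in ExE-Mech-like cells was 762 CPM in the Day 10 library, 1930 to 3226 CPM on Day 12 and 1852 to 8322 CPM on Day 14. The log2 difference of Day 14 against Day 10 was 3.08 (SE 0.73, adjusted p = 0.074), while SNAI2, at 81.0 CPM on Day 10 and 76.5 to 158 CPM on Day 14, differed by 0.60 (SE 0.44, adjusted p = 0.473). Day 10 is here 1 mutant library of 59 cells, so that the spread comes from the other days and nothing is read from these tests. Of all genes 0.0395% were called. In endoderm-like cells VIM was 66.5, 46.6 and 329 CPM on Day 10 and 680 to 1085 CPM on Day 14, without overlap, which 12.8% of all genes showed (log2 difference 2.91, SE 0.76, adjusted p = 0.0953), in a comparison that called 0.0309% of genes. Day 12 against Day 10 called 0.00803% of genes in Epi-derived and 0.00662% in trophoblast-like cells, none of them SNAI2, VIM or OVOL2. In amnion-like cells Day 10 is 1 mutant library with 14 cells and 5 VIM UMIs, and the fit takes it to vary like the other libraries, so nothing is read from the fitted differences of VIM for Day 14 (7.04, SE 0.69, adjusted p = 0.00474) and Day 12 (6.27, SE 0.66, adjusted p = 0.00463) against Day 10. These comparisons called 0.0111% and 0.0222% of all genes. The calls were lost without mutant Day 14 replicate 1 (7.68) or wild-type Day 12 replicate 2 (6.76) for Day 14, and without mutant Day 12 replicate 1 (6.40) for Day 12.

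The genes whose levels ran most alike were searched among the 1016 other genes with a symbol, by Pearson correlation of log2(CPM + 5) over 42 sums of at least 20 cells from 7 classes and 11 libraries. The sums share libraries and classes, so the coefficients are descriptions. HGF and CTHRC1 are also ExE-Mech markers used to name that class. L1TD1 is an Epi-derived and Epi marker, FAM210A a Transition marker and TEK a marker of blood and endothelium. These lists entered the naming too. For SNAI2 the genes most alike were TEK, an endothelial receptor (0.98), ZEB2, CREB3L1, the collagen VI gene COL6A3 and the growth factor gene HGF (0.97 each). For VIM they included CTHRC1 (0.91), HOXA11 and GNAS (0.90 each) and IKBIP (0.89). For OVOL2 they were the ETS factor gene ETV4 (0.87), L1TD1 (0.85), JARID2 (0.80), FAM210A (0.79) and the glycine decarboxylase gene GLDC (0.77). Among themselves SNAI2 and VIM had a coefficient of 0.73, SNAI2 and OVOL2 of -0.80, and VIM and OVOL2 of -0.70.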

How the data were processed

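Cells of 12 wild-type embryos (6 libraries) and 11 mutant embryos (5 libraries) were profiled with 10x Chromium. The authors aligned reads with Cell Ranger 3.1.0 to the Ensembl gene models of the cynomolgus assembly, dropped genes found in hardly any cell, filtered cells on mitochondrial share and gene number, and removed free RNA with SoupX, whose contamination estimate came from choriogonadotropin transcripts in POU5F1-positive cells. The deposited corrected table holds these estimated counts, which are whole numbers, for 33330 cells, and the deposited uncorrected table holds raw UMI counts for 33539 cells. Correction can remove true low counts or leave free RNA, which bears on SNAI2 and VIM outside the mesenchyme.

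Cells were clustered per day (leidenalg 0.10.2, resolution 0.8), and Epi-derived cells again over all days on 162 genes (the naming markers and genes that the study lists for its Day 14 classes). The EMT lists were left out as features, and clusters were named from marker lists. The naming rule was set after clusters had been seen, and the 3 genes and all lists were chosen with earlier results of these data known. No doublet caller was run, and 316 cells of mixed and 94 of unnamed clusters were left out of the main classes. The unnamed clusters of Epi-derived cells entered the tests of that class, but of no named class within it. Cell numbers equal those in the study's text. Estimated counts were summed per library and class of at least 5 cells and tested with edgeR 4.0.16 (quasi-likelihood, TMM, filterByExpr, two-sided, Benjamini-Hochberg over all genes, adjusted p under 0.01), with the library as a block between classes, no covariate at Day 14, the day for genotype over all days and the genotype for days. The 3 genes were followed in every comparison, but not every fitted value of them is printed. ZEB2, CDH2, FN1, EPCAM, CDH3 and KRT18 are named where discussed. In 3 main comparisons up to 2 further list genes with the largest change each way are named. One gene that the rule names is not reported here. Other gene names stand for counts of 5 or fewer and were chosen after their values were seen. Depth was 36654977 to 164808415 UMIs per library. The SE of an edgeR log2 difference was computed as its absolute value divided by the square root of the F statistic. It is approximate, above all for sums with few UMIs. P-values of genotype and day measure the spread between libraries. Those between classes measure the spread left after the library block, pooled over all classes of the fit. In the comparisons within Epi-derived cells that fit also holds ExE-Mech-like, endoderm-like and trophoblast-like sums. Binomial intervals cover counting error only. The script was tested on simulated data. The labels give replicate numbers as batch numbers. Deviations of equal numbers correlated at -0.38 to 0.51 between groups, so the numbers were not taken as pairs. Alternatives were DESeq2 1.42.0, no filter, uncorrected counts, other clusterings and names, at least 20 cells, no cells of the top 5% in UMIs, subsets of libraries, other blocks and each library left out.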

Additional observations from a re-analysis of the deposited data

How the results depend on the processing

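Of 49 results on the 3 genes, 23 changed neither call nor direction under any alternative, and of 1102 alternatives on them 1033 kept both, among them all those of ExE-Mech-like against Epi-derived, endoderm-like and trophoblast-like cells. These counts include results that were not called and stayed so. They also include Day 14 genotype comparisons with a Day 10 or Day 12 library left out, which repeat the main fit by construction. Both raise the number kept. The cause of a change was not tested unless fewer libraries, cells or genes enter by construction. SNAI2 in mesoderm-like against Epi-like cells was the least stable. Its call was lost with DESeq2 (2.81), a cluster resolution of 0.4 (2.28) or 1.6 (2.52) in place of 0.8, clusters within each library (2.54), at least 20 cells (3.48), wild-type libraries only (3.91), Day 14 only (3.98) and no library block (3.15), it was reversed with mutant libraries only (-6.45), and leaving out 1 library gave -5.98 to 3.54.

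For OVOL2 in mesoderm-like against transition-like cells the call was lost with resolution 1.6 (-2.03), clusters within each library (-2.71), at least 20 cells (-2.19), wild-type (-2.47), mutant (-12.88) or Day 14 (-2.23) libraries only, with -4.35 to -2.49 when 1 library was left out. VIM in ExE-Mech-like against mesoderm-like cells lost it with at least 20 cells (2.68), names by marker score alone (1.50, chosen after seeing the data), mutant (3.67) or Day 14 (2.42) libraries only and no library block (3.02), with 2.26 to 2.78 when 1 library was left out. With mutant libraries only, where the mesoderm-like side is 1 sum of 9 cells with no UMI of SNAI2 or OVOL2, the fitted values there were 13.29 for SNAI2 (no call) and 6.34 for OVOL2 (reversed), which are no estimates of size (OVOL2 -4.03 to -2.38 without 1 library). VIM and OVOL2 in mesoderm-like against Epi-like cells were not called with at least 20 cells (3.30 and -2.77) or mutant libraries only (2.99 and -13.46). OVOL2 lost its call in amnion-like against Epi-like cells at resolution 0.4 (-0.53), in wild-type (-1.06) and in Day 14 libraries only (-0.64), and with Day 14 only also in trophoblast-like (-0.61) and endoderm-like (-1.26) against Epi-derived cells. SNAI2 in trophoblast-like against Epi-derived cells was not called without the library block (-1.66). OVOL2 in transition-like against Epi-like cells, not called, turned to 0.12 with clusters within each library and 0.06 with Day 14 only, and VIM in mesoderm-like against amnion-like cells to -0.07 with clusters within each library. Names by marker score alone called VIM in transition-like against Epi-like (2.08) and mesoderm-like against transition-like cells (2.26), OVOL2 in mesoderm-like against amnion-like cells (-1.23) and OVOL2 in amnion-like against transition-like cells (-1.18).

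VIM in Epi-derived cells at Day 14 was called with DESeq2 (1.61) and no filter (1.61), with 1.32 to 1.94 without 1 library, VIM in Epi-like cells with resolution 1.6 (3.30) and VIM in trophoblast-like cells with DESeq2 (2.76). By day, DESeq2 and no filter called OVOL2 in Epi-derived (-1.52 and -1.58) and VIM in ExE-Mech-like cells (3.05 and 3.07), and no filter VIM in endoderm-like cells (2.87). OVOL2 in Epi-like cells was not called with clusters within each library (-1.58; -1.82 to -1.41 without 1 library). VIM in amnion-like cells was not called with resolution 1.6 (6.47 for Day 14 and 5.99 for Day 12), with 6.76 to 7.68 and 5.91 to 6.41 without 1 library. The batch number as a replicate block changed no call of the 3 genes (VIM in Epi-derived cells at Day 14 1.62, adjusted p = 0.0199, edgeR) but moved that comparison's calls from 56 to 455 genes. Of the other genes, CLDN10 in mesoderm-like against Epi-like cells was reversed with resolution 1.6 (2.29) and clusters within each library (1.93). Without a call, ZEB2 turned to -5.90 (mutant only) there and in amnion-like cells to -5.34 (wild-type only) and -1.36 (Day 14 only), FN1 to -0.30 (wild-type only) and -0.04 (mutant only; -0.88 to 0.85 without 1 library), EPCAM to -0.10 (Day 14 only) and -0.09 (no block; -0.02 to 0.26), and KRT18 in ExE-Mech-like cells ranged from -0.49 to 0.10.

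Shares of cells with a UMI changed with the thinning. At 20000 UMIs VIM was at 24.7% in Epi-like, 90.9% in mesoderm-like and 2.99% in trophoblast-like cells, OVOL2 at 68.4% in Epi-like and 0.692% in ExE-Mech-like, and SNAI2 at 68.2% in ExE-Mech-like and 0.715% in trophoblast-like cells. Without thinning the same 7 shares were 40.1%, 92.7%, 4.63%, 74.3%, 0.620%, 67.2% and 1.16%, with OVOL2 at 24.1% and SNAI2 at 8.38% in mesoderm-like cells. In uncorrected counts they were 51.9%, 95.3%, 19.4%, 74.7%, 0.636%, 67.8% and 1.21%, with 26.2% and 8.38%, and VIM at 99.6% in ExE-Mech-like cells.

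Counts of genes called moved by over 1.5 times in these comparisons, among others: mesoderm-like against Epi-like 874 (52 with mutant libraries only, 2500 with names by score alone), transition-like against Epi-like 43 (1 with clusters within each library, 303 by score alone), amnion-like against Epi-like 2847 (521 with Day 14 only), mesoderm-like against transition-like 69 (0 with clusters within each library, 668 by score alone), ExE-Mech-like against mesoderm-like 2713 (103 with mutant only), mesoderm-like against amnion-like 398 (4 with mutant only, 1207 by score alone), amnion-like against transition-like 386 (11 with wild-type only, 1861 by score alone) and, with Day 14 only, ExE-Mech-like against Epi-derived 6070 (3240), endoderm-like against Epi-derived 6423 (2037), trophoblast-like against Epi-derived 8083 (5020), ExE-Mech-like against endoderm-like 5657 (2780) and endoderm-like against trophoblast-like 7083 (3930), and, with wild-type only, ExE-Mech-like against trophoblast-like 6440 (3651). For the mutant at Day 14 DESeq2 called 530 genes in Epi-derived, 240 in ExE-Mech-like, 28 in endoderm-like and 233 in trophoblast-like cells against 56, 1, 0 and 0, and for Day 14 against Day 10 in Epi-like cells 517 against 203. Without a filter on low counts the Epi-derived cells had 1222 genes called for the mutant at Day 14, and the Epi-like cells 842 by day, and leaving out 1 library gave as few as 24 (without mutant Day 14 replicate 1) and 13 (without wild-type Day 14 replicate 1). Over Epi-derived cells Day 14 against Day 10 called 107 genes (989 with DESeq2, 0 without wild-type Day 10 replicate 2), and the mutant over all days 15 (386 with DESeq2, 0 without wild-type Day 14 replicate 1).

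Cell numbers limit SNAI2 in mesoderm-like cells: it had 28 UMIs in the 158 cells of 1 library and none in the sums of 13, 6 and 9 cells, and the mesoderm-like and transition-like cells come largely from that library.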
